A study of Mus musculus with 14 samples.

Results

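This section describes 7 genes of the extracellular matrix, Acan, Bcan, Cspg5, Crtac1, Col6a1, Adamts15 and Dcn, in excitatory neurons of the mouse hippocampus. They were taken as named columns of a panel of 255 genes counted in single cells by MERFISH, an imaging method that reads barcoded RNA molecules in place in a tissue section. The data cover 13602 cells in 14 sections of fresh-frozen hemibrains, and each cell carries the submitters' class: DG_ExN for excitatory neurons of the dentate gyrus, CA1_ExN for those of field CA1, and CA3_ExN for those of field CA3. Interneurons and glia are not among the classes, and 0 cell identifiers occurred in more than 1 section. The labels give 4 groups of mice. Ctl-Veh mice had no radiation and vehicle (5 sections), Ctl-Rz mice no radiation and RZ (3 sections), Ir-Veh mice radiation and vehicle (4 sections), and Ir-Rz mice radiation and RZ (2 sections). RZ is kept here as the labels' abbreviation. Dose, age, strain and sex are not given in the sources used here, nor whether each section came from its own animal, so p-values measure the spread between sections.

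Perineuronal nets are dense sheaths of matrix around the cell body and proximal dendrites of some neurons, built on hyaluronan and on chondroitin sulfate proteoglycans of the lectican family. Acan encodes aggrecan and Bcan brevican, which are lecticans, and aggrecan is the usual marker of mature nets. In the hippocampus nets are best known around parvalbumin interneurons and around pyramidal neurons of field CA2. Cspg5 encodes neuroglycan C, a transmembrane chondroitin sulfate proteoglycan. Crtac1 encodes a secreted cartilage acidic protein, and Adamts15 a secreted metalloprotease of a family that cleaves lecticans. Col6a1 encodes a chain of collagen VI, and Dcn encodes decorin, a small leucine-rich proteoglycan typical of fibroblasts.

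Promoter sequence was at hand in RefSeq (GRCm38.p6) for 4 of the 7 genes. It is shown because Bcan was higher in CA1 than in the dentate gyrus, while Acan, Col6a1 and Crtac1 were lower. Each window runs from 250 bases before to 50 bases after a gene's start, 300 bases in all, and is printed 5′ to 3′ on the gene's strand. Capitals mark E-boxes (CANNTG, a motif of basic helix-loop-helix factors) and the TATA box (TATAAA), searched on both strands.
Bcan, chr3:88000307-88000606, minus strand: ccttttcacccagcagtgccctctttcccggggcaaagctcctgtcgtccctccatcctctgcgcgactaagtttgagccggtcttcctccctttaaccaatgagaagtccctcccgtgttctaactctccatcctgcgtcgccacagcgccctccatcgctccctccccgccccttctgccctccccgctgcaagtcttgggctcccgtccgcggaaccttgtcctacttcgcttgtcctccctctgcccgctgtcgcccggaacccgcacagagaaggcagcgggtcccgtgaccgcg
Acan, chr7:79052976-79053275, plus strand: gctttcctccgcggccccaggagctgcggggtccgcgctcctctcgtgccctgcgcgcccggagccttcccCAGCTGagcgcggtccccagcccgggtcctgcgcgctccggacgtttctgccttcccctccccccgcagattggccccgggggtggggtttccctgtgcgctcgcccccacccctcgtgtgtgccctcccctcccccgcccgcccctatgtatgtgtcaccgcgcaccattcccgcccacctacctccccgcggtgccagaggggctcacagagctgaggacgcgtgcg
Col6a1, chr10:76725995-76726294, minus strand: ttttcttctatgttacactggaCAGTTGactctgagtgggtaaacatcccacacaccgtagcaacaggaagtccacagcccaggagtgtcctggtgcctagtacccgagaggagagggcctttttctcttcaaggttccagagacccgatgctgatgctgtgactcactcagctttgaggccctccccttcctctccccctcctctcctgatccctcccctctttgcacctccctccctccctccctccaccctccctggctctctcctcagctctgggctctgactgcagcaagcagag
Crtac1, chr19:42431739-42432038, minus strand: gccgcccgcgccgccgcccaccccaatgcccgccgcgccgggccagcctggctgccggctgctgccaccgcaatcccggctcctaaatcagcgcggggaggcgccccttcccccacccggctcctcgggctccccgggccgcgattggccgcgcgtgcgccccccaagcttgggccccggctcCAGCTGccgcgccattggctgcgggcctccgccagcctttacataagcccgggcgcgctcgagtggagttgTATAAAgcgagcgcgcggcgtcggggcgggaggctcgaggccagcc
The Bcan window held 0 E-boxes and the Acan, Col6a1 and Crtac1 windows 1 each, beside 72.3% of all 32851 windows in the table with at least 1. TATAAA was found in the Crtac1 window alone among these 4, and in 13.6% of all windows. The GC content was 64% for Bcan, 74% for Acan, 57.3% for Col6a1 and 76.7% for Crtac1, against a median of 52.7% over all windows. CG dinucleotides numbered 24, 31, 3 and 41 in the same order, against a median of 7, so that the Col6a1 window was the CG-poor one of the 4. A second Crtac1 window, further downstream, had 73% GC, 31 CG dinucleotides and 1 E-box. The motif TGACG, searched on both strands, was in none of the 5 windows and in 20.8% of all windows. Cspg5, Adamts15 and Dcn are named only.

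The sections held 413 to 1449 cells and 137786 to 434127 counts each. Dentate gyrus neurons numbered 199 to 1001 per section, CA1 neurons 115 to 370 and CA3 neurons 57 to 185. The median count per cell lay between 158 and 285 in the dentate gyrus, 248 and 605 in CA1 and 229 and 478 in CA3, so levels are given as CPM, the count scaled to a fixed total for each section and class, unless stated otherwise. Single marker genes differed between the classes in the direction of their labels. Grm2 was at 14143 CPM in the dentate gyrus and 305 in CA1, Fibcd1 at 17003 CPM in CA1 and 401 in CA3, and Iyd at 3448 CPM in CA3 and 316 in CA1. Dkk3, on the list of CA1 markers, was close in both CA fields, at 30059 CPM in CA1 and 26687 in CA3. The 3 measured genes of the 9 on that list summed to 23.8 counts in an average CA1 cell, 9.89 in a CA3 cell and 0.689 in a dentate cell, and 188 of the 1644 CA3 cells were in Leiden cluster 1, the main cluster of CA1. The number that ends each sample title was taken as the imaging run of the section. It pairs the sections 2 at a time in 7 runs, each run holding sections of 2 groups. Of the 114 matrix genes listed for this work, 14 were on the panel.

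Bcan was a gene of the CA fields. It averaged 7481 ± 3692 CPM in CA1 (SD, n = 14 sections), 6282 ± 2693 CPM in CA3 and 817 ± 277 CPM in the dentate gyrus. Within a section it was higher in CA1 than in the dentate gyrus in 14 of 14, by 8.37-fold in the median section, and higher in CA3 than in the dentate gyrus in 14 of 14, by 7.41-fold. In CPM, CA1 and CA3 were not separated, since CA1 was the higher in 10 of 14 sections and by 1.17-fold in the median. On other scales CA1 was the higher in more sections. It was so in 12 of 14 per cell (1.30-fold) and 13 of 14 per cell volume (1.40-fold). Scaled to the deposited total counts of the cells, it was so in 14 of 14 (1.36-fold). A Bcan transcript was counted in 79.4% ± 14.8 of CA1 cells, 71.3% ± 13.5 of CA3 cells and 13.7% ± 4.69 of dentate cells. Per cell the differences from the dentate gyrus were 15.1-fold for CA1 and 11.1-fold for CA3. The genes behind the submitters' classes are not given in the sources used here and may include these, so the class differences are descriptions with no test.

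Acan, Col6a1, Crtac1 and Cspg5 had the opposite arrangement between the dentate gyrus and CA1, with the dentate gyrus above CA1 in every section. Acan was at 850.2 ± 314 CPM in the dentate gyrus and 151 ± 77.3 CPM in CA1, a median difference of 5.90-fold. Col6a1 was at 1012 ± 441 CPM in the dentate gyrus and 154 ± 58.8 CPM in CA1, 6.68-fold apart in the median section. Crtac1 was at 7509 ± 2185 CPM against 2778 ± 1243 CPM, a difference of 2.75-fold, and was counted in 67.6% ± 9.02 of dentate cells. Cspg5 was at 2187 ± 719 CPM against 723 ± 226 CPM, 2.97-fold apart. CA3 lay below the dentate gyrus in 14 of 14 sections for Crtac1, at 3759 ± 1402 CPM, and in 13 of 14 for Cspg5, at 1343 ± 599 CPM. In counts per cell the dentate gyrus was still above CA1 in 14 of 14 sections for these 4 genes, by 3.57-fold for Acan, 3.78-fold for Col6a1, 1.75-fold for Crtac1 and 1.91-fold for Cspg5, and above CA3 in 13 of 14 for Crtac1 and 10 of 14 for Cspg5. In CPM, 5 of the 7 genes were lower in CA1 than in the dentate gyrus in every section, a direction shared by 27.1% of the 255 genes, and 1 of 7 was higher in every section, beside 12.5% of the 255.

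In CA3 the levels of Acan and Col6a1 varied widely between sections. Acan in CA3 was at 3859 CPM in the Ctl-Rz section of run 8, between 1197 and 1897 CPM in the 2 Ctl-Veh sections of runs 2 and 8, the Ctl-Rz section of run 3 and the Ir-Veh section of run 1, and between 131 and 860.4 CPM in the other 9. The range was 29.6-fold, against 7.23-fold in the dentate gyrus and 22.1-fold in CA1 (12.3 to 273 CPM), where both sections of run 12 were the low end. The CA1 range is set near the floor, with 192 Acan counts over all 14 sections and 0.00465 per cell in the lowest. Acan was higher in CA3 than in the dentate gyrus in 5 of 14 sections, and higher in CA3 than in CA1 in 14 of 14, by 4.94-fold in the median. In counts per cell Acan was higher in CA3 than in the dentate gyrus in 7 of 14. Its mean in CA3 was 965 ± 1035 CPM, around a median of 545. Col6a1 in CA3 ran from 55.1 to 1714 CPM around a median of 308, and exceeded the dentate gyrus in 3 of 14 sections. Sections with high Acan in CA3 were not those with high Col6a1: the Ctl-Rz section of run 8 had the highest Acan and the lowest Col6a1 of the 14. That lowest Col6a1 value is near the floor, at 0.0159 counts per cell over 63 cells. The Ctl-Veh section of run 2 was close to it, at 80.4 CPM.

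Adamts15 differed less between the classes than any of the 7 genes except Dcn. It was at 967 ± 344 CPM in CA3, 727 ± 250.1 CPM in the dentate gyrus and 545 ± 176 CPM in CA1, and CA3 was the higher of CA3 and CA1 in 14 of 14 sections, by 1.63-fold. It was lower in CA1 than in the dentate gyrus in 14 of 14 sections on this scale, by 1.34-fold, but higher by 0.32 on the log2 scale in counts per cell and by 0.23 in counts per cell volume. Dcn was low in all classes, at 127 ± 56.4 CPM in the dentate gyrus, 135 ± 76.3 CPM in CA1 and 151 ± 83.2 CPM in CA3. That is 0.0258 to 0.0521 counts per cell, and the order of the classes changed from section to section, with CA1 above the dentate gyrus in 8 of 14. Acan, Cspg5 and Adamts15 were lower in CA1 than in CA3 in every section, 3 of 7 genes beside 13.3% of the 255, and 2 of 7 differed between CA3 and the dentate gyrus in every section, Bcan higher (13.7% of the 255) and Crtac1 lower (15.7%).

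**Figure D1:**
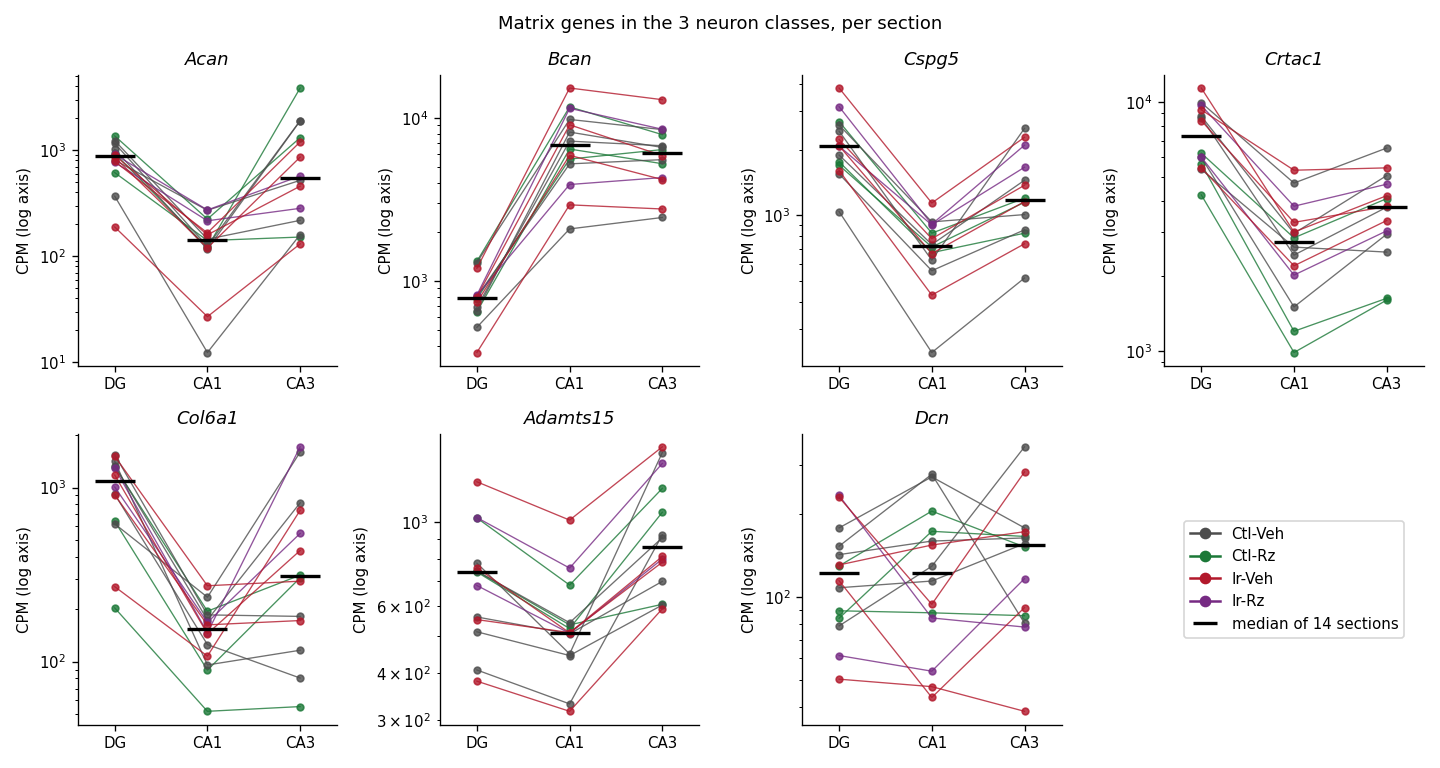
CPM of the 7 genes (log axes) in dentate gyrus, CA1 and CA3 neurons, with 1 point per section, lines joining the classes of a section, colours for the 4 groups and bars at the median of 14 sections. Bcan is high in CA1 and CA3 in every section, while Acan, Cspg5, Crtac1 and Col6a1 dip in CA1 and Acan and Col6a1 fan out in CA3.

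Among the other 7 matrix genes on the panel (Cspg4, Gpc3, Bgn, Fn1, Col5a2, Col11a1 and Ccn2), Col11a1 alone reached 0.2 counts per cell in a class. Col11a1, which encodes a chain of the fibrillar collagen XI, was lowest in the dentate gyrus with 0.0531 counts per cell, against 0.572 in CA3 and 1.04 in CA1. Its profile was one of the nearest to that of Bcan. Over the 42 sums of a section and a class, Bcan correlated most with Dkk3 (Pearson r = 0.92), Col11a1 (0.92) and Arc (0.89). Acan was nearest to Gsto1 (0.82), Cacng5 (0.81) and Bsg (0.78), Crtac1 to Adgra1 (0.75), Col6a1 to Adgra1 (0.75) and to Crtac1 (0.72), Cspg5 to Ctnnb1 (0.81), Adamts15 to Cd83 (0.79) and Dcn to Dbh (0.43). The 3 sums of a section share its imaging run and the class differences dominate them, so these values describe likeness and carry no p. After subtraction of the class means, the nearest gene was Camk2a for Bcan (0.85), Gng2 for Adamts15 (0.84), Ctnnb1 for Cspg5 (0.71) and again Gsto1 for Acan (0.69). Among the 7 genes themselves, Bcan and Cspg5 then moved together most (0.69), and Cspg5 and Dcn most in opposition (−0.59).

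Few cells held much of the Acan and Col6a1 counted in CA3. The cells described next were picked by a count threshold chosen after the data were seen, so they are described with no test. In CA3, 44 of 1644 cells had 3 or more Acan counts, 2.68% of the class, and these held 48.6% of all Acan counts there. They lay in 9 of 14 sections. In the Ctl-Rz section of run 8 they were 10 of 63 cells, or 15.9% (95% exact binomial interval 7.88 to 27.3), and in the Ctl-Veh section of the same run 7 of 57 cells, or 12.3% (5.08 to 23.7). With each cell thinned to 100 counts, the share with 2 or more Acan counts was 8.77% in the Ctl-Rz section of run 8, 3.70% in the Ctl-Veh section of that run and 3.26% in the Ctl-Veh section of run 2. The Ir-Veh section of run 12 had 0 of 185 CA3 cells, which allows a share of up to 1.62%, and the Ctl-Veh section of that run 0 of 152, which allows up to 1.97%. These limits cover counting error only.

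The Acan-rich CA3 cells differed from the other CA3 cells in further genes. Cacng5, a transmembrane protein of AMPA receptors, was at 2 counts per cell against 0.14 in the other cells, and Hs3st1, a heparan sulfate sulfotransferase, was 5.36-fold higher in CPM. Bcl6, a transcriptional repressor, was 7.70-fold and Gm2115 6.31-fold higher. All 4 were higher in 9 of 9 sections that held such cells, but they were picked for the highest folds in these same cells. For this and later counts of sections in cells rich in a gene, the share over all genes was not computed. The folds pool the cells of all sections, and the Ctl-Rz and Ctl-Veh sections of run 8 held 10 and 7 of the 44. Iyd was at 0.150 and the potassium channel subunit Kcnab1 at 0.221 of their level in the other cells. Cacng5 and Iyd are the 2 measured genes of 13 on the list of CA2 and CA3 markers, and they differed in opposite directions. Gm2115 is on the list of CA1 markers. It was at 14778 CPM in the Acan-rich CA3 cells and 2342 in the other CA3 cells, against 14922 in CA1. The Acan-rich cells were deeper, with a median of 485 counts against 304, and 29 of the 44 were in Leiden cluster 8, the main cluster of CA3, with 11 in cluster 1, the main cluster of CA1.

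CA3 cells with Acan also lay near each other. Around a CA3 cell with an Acan count, the 10 nearest CA3 cells of its section had 2.52 times the Acan CPM found around a CA3 cell with none, in the median of 10 sections with enough such cells (range 0.893 to 9.74). The ratio was above 1 in 9 of 10 sections. Of the 131 genes that could be measured in CA3, 10.7% were above 1 in at least that share of their sections, and Acan ranked 4 among the 131 by its median. Gm2115 (6.60), Bcl6 (3.53) and Cacng5 (3.22) ranked above it and Hs3st1 (2.51) next below, all of them genes higher in the Acan-rich CA3 cells. Where it could be measured, no other gene of the 7 had a ratio as high as that of Acan in CA3. Col6a1 was at 1.59 in CA1, rank 3 of 193 genes, but above 1 in 7 of 10 sections alone, and at 1.28 in the dentate gyrus, rank 9 of 226, above 1 in 11 of 14. Dcn in the dentate gyrus was at 1.45, rank 5 of 226 and above 1 in 9 of 12 sections, but at 0.790 and 0.935 with 5 or 20 neighbours. Crtac1 was at 1.10 in the dentate gyrus, above 1 in 14 of 14 sections, and at 1.24 in CA1, above 1 in 13 of 14. At least 9 of 10 sections were above 1 for 3.54% of 226 genes in the dentate gyrus and 2.59% of 193 genes in CA1. Cspg5 in CA3 was at 1.20, above 1 in 12 of 14 sections, and Bcan was at 1.03 in CA3 and 1.05 in CA1. Neighbours share their place in the section and errors of cell outlines, and the part of either was not tested.

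Col6a1 was concentrated in few cells in both the dentate gyrus and CA3. In the dentate gyrus 125 of 8561 cells had 5 or more counts, 1.46% of the class with 46.3% of its Col6a1 counts. The variance of the Col6a1 count over cells was 5.15 times its mean there, rank 11 of 162 genes, and 9.79 times in CA3, rank 7 of 217. The Col6a1-rich dentate cells had 3.59-fold more Gpr83, a G protein-coupled receptor, 3.56-fold more Drd1, a dopamine receptor, 3.34-fold more Igfbp6 and 2.56-fold more Acan. Drd1 and Acan were higher in 12 of 12 sections that held such cells, with no share over all genes computed. Such cells made up 3.02% of the dentate cells in the Ctl-Veh section of run 8 (20 of 663, exact interval 1.85 to 4.62), and none was found in the Ctl-Rz section of run 8 (0 of 433, which allows up to 0.693%) or in the Ir-Veh section of run 12 (0 of 426, up to 0.704%).

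Dentate cells were also picked by their Acan counts. The 70 dentate cells with 3 or more Acan counts, 0.818% of the class, had 3.46-fold more Col6a1 than other dentate cells, but it was higher in only 7 of the 13 sections that held such cells. Gpr83 was 3.33-fold higher, in 10 of 13 sections, and Drd1 3.01-fold, in 11 of 13. Arc, an activity-regulated gene, was 7.61-fold higher in them, in 12 of 13 sections. In CA3, 17 cells with 5 or more Col6a1 counts held 61.4% of its counts there. They had 8.95-fold more Fam107a, in 7 of 7 sections, and 5.94-fold more Col11a1, while Cck, which encodes cholecystokinin, was at 0.0825 of its level in other CA3 cells, and 11 of the 17 were in Leiden cluster 1. The 19 dentate cells with 5 or more Bcan counts had 20.8-fold more Gja1, in 9 of 10 sections with such cells, 17.4-fold more C4b, in 6 of 10, and 11.4-fold more Apoe, in 10 of 10. Gja1 and Apoe are known from astrocytes. Fezf2, a transcription factor of neurons, was 15.6-fold higher, in 7 of 10.

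**Figure D2:**
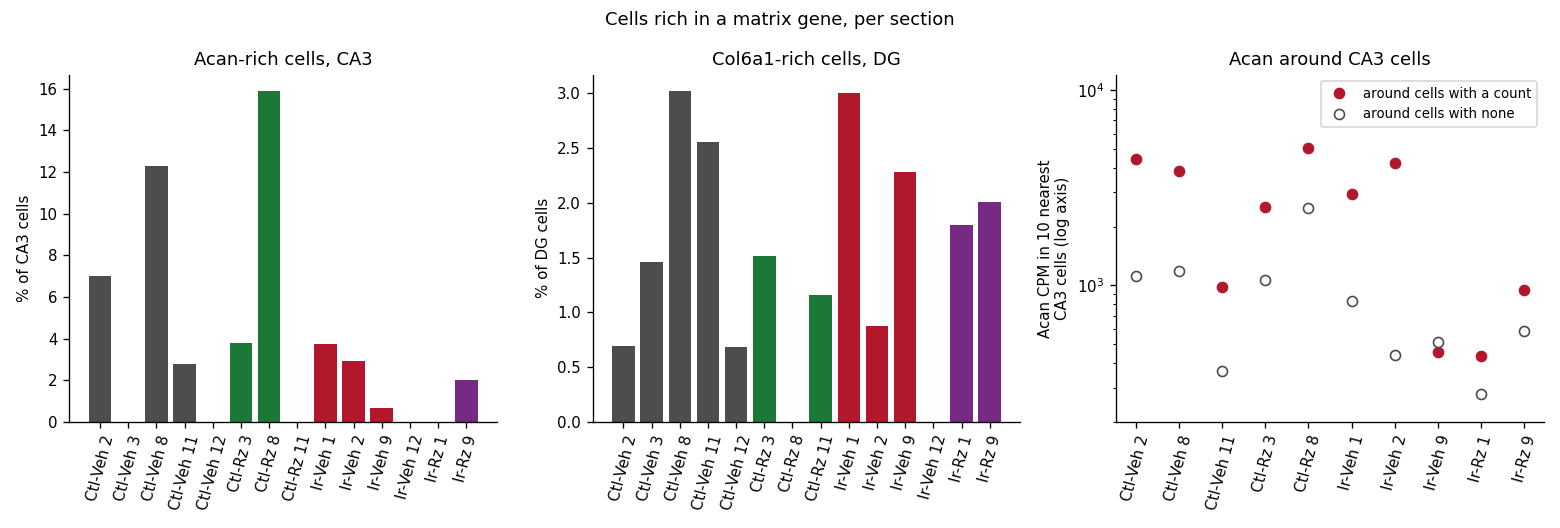
Share of CA3 cells with 3 or more Acan counts (left), share of dentate cells with 5 or more Col6a1 counts (middle), and Acan CPM of the 10 nearest CA3 cells around CA3 cells with or without an Acan count (right, log axis), each per section. Acan-rich cells peak at 15.9% in the Ctl-Rz section of run 8 and are absent from 5 sections, and the filled points lie above the open ones in 9 of 10 sections.

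Levels differed between imaging runs for most of these genes. With the group in the fit, terms for the run passed an adjusted p of 0.05 in edgeR's quasi-likelihood test for 5 of the 7 genes over all cells, beside 42.4% of the 255. The adjusted p was 0.0033 for Acan, 0.0058 for Bcan, 0.0072 for Cspg5, 0.016 for Crtac1 and 0.018 for Dcn, and it was 0.067 for Adamts15 and 0.082 for Col6a1. Without trimmed-mean (TMM) scaling, on library size alone, they passed for 6 of the 7, all but Col6a1 (adjusted p 0.055), beside 56.1% of the 255. Within the dentate gyrus they passed for Crtac1 (adjusted p 0.0063), Acan (0.0070), Cspg5 (0.014) and Dcn (0.033), beside 38.1% of 252 genes. Within CA1 the run terms passed for Bcan (adjusted p 6.35e-05), Crtac1 (0.0022), Acan (0.034) and Cspg5 (0.041), beside 36.5% of 233 genes, and within CA3 for none of 218 genes. Run 12 was the low end for Acan and Bcan. All-cell Acan was at 244 and 128 TMM-scaled CPM in its Ctl-Veh and Ir-Veh sections and between 387 and 968 in the other 12. Bcan was at 1426 and 2161 in run 12 and at 8588 and 5443 in the Ir-Veh and Ir-Rz sections of run 1.

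Radiation was compared first in vehicle-treated mice, as Ir-Veh against Ctl-Veh, over counts summed per section. None of the 7 genes passed an adjusted p of 0.05 in edgeR's quasi-likelihood test, nor did any of the 255 (0%), and none of the 7 had an unadjusted p under 0.05, beside 1.57% of the 255. The 4 Ir-Veh sections had 4538 ± 2989 TMM-scaled CPM of Bcan (SD) and the 5 Ctl-Veh sections 3578 ± 1787, which is 0.34 ± 0.40 (SE) on the log2 scale. Acan differed by −0.35 ± 0.40, Col6a1 by −0.33 ± 0.36, Dcn by −0.42 ± 0.36, Cspg5 by 0.28 ± 0.31, Adamts15 by 0.24 ± 0.27 and Crtac1 by 0.15 ± 0.32, all with an edgeR adjusted p of 0.984. Each gene's groups overlapped, while 1.18% of the 255 had groups that did not. Runs 2 and 12 held both groups. Bcan and Cspg5 were higher with radiation in both (27.5% of the 255 genes) and Acan and Dcn lower in both (30.2%), while Crtac1, Col6a1 and Adamts15 differed in direction between the runs. With the irradiated section first, Bcan was at 4997 against 3390 TMM-scaled CPM in run 2 and 2161 against 1426 in run 12, and Acan at 694 against 815 and 128 against 244.

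RZ in irradiated mice was compared as Ir-Rz against Ir-Veh, with 2 sections against 4. No gene of the 7 passed the adjusted threshold (0% of the 255) or an unadjusted p under 0.05 in edgeR's test (0.784% of the 255). The log2 differences lay between −0.46 ± 0.50 for Dcn and 0.35 ± 0.46 for Col6a1, all with an edgeR adjusted p of 0.990. Acan was at 577 and 489 TMM-scaled CPM in Ir-Rz, within the Ir-Veh range of 128 to 694, and Bcan at 5443 and 2347, within 2161 to 8588. No gene of the 7 had groups that did not overlap, against 6.27% of the 255.

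RZ in unirradiated mice was compared as Ctl-Rz against Ctl-Veh. These Ctl-Veh sections are also the controls of the radiation comparison. No gene passed the adjusted threshold in edgeR's test (0% of the 255), and Col6a1 and Crtac1 were the 2 of the 7 with an unadjusted p under 0.05, beside 2.35% of the 255. Col6a1 was at 637, 131 and 411 TMM-scaled CPM in the Ctl-Rz sections of runs 3, 8 and 11, and at 579, 905, 704, 959 and 750.1 in the Ctl-Veh sections of runs 2, 3, 8, 11 and 12. The Ctl-Rz sections were low, but that of run 3 lay above the lowest Ctl-Veh section. The log2 difference was −0.97 ± 0.41 (unadjusted p = 0.026 and adjusted p = 0.989 in edgeR, a model fitted across all genes). Crtac1 was at 2894, 2747 and 4712 in Ctl-Rz and at 6343, 6441, 3733, 4178 and 8362 in Ctl-Veh, a log2 difference of −0.75 ± 0.36 (edgeR adjusted p = 0.989). The other 5 genes differed by −0.50 ± 0.40 (Dcn) to 0.26 ± 0.29 (Adamts15), and no gene's groups were separate (0.392% of the 255).

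The call of Col6a1 depended on how the fit treated imaging runs. In limma, with a random effect of the run, it fell by 1.33 on the log2 scale with an adjusted p of 0.016, the 1 gene called among the 255 (0.392%). With the run as a fixed block in edgeR, the difference was −1.26 with an adjusted p of 0.367. The call was lost without run 8: with both of its sections left out, the random-effect value was −0.80 with an adjusted p of 0.231. No other run was left out of that fit, so it cannot tell whether run 8 differs from the others in this. Without the Ctl-Rz section of run 8 alone the edgeR value was −0.57. Within runs, Col6a1 was lower with RZ in each of the 3 unirradiated runs, as were 9.41% of the 255 genes, and this held for no other gene of the 7. Vascular and fibroblast markers, of which 8 of 29 listed were measured, Dcn among them, summed to 1328 to 2380 CPM in Ctl-Rz and 1109 to 1327 in Ctl-Veh, and none of the 8 was at 0. Astrocyte markers, 5 of 16 measured, summed to 2644 to 2981 CPM and 2100 to 2796. Their part in the Col6a1 and Crtac1 values was not tested.

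In the dentate gyrus, where most Col6a1 counts lay, it was also lower with RZ in the 3 unirradiated runs. Dentate Col6a1 was at 1105, 199.6 and 602 TMM-scaled CPM in the Ctl-Rz sections of runs 3, 8 and 11, against 1200.4, 1462 and 1585 in the Ctl-Veh sections of those runs. In the irradiated runs 1 and 9 it was at 1387 and 854 with RZ and 1568 and 942 with vehicle, whereas over all cells run 1 was higher with RZ (1084 against 892) and run 9 lower (483 against 581). RZ sections were thus lower in 5 of 5 runs, as for 5.16% of the 252 genes tested in the dentate gyrus, by 0.12 to 2.87 on the log2 scale, with runs 1, 3 and 9 all within 0.18. Run 3 was near equal in CPM without TMM scaling, at 1319 with RZ and 1334 with vehicle, and higher with RZ per cell, at 0.280 against 0.239 counts. The Ctl-Rz difference was −0.90 ± 0.45 in edgeR (adjusted p = 0.994), −1.29 ± 0.40 when edgeR blocked on the run (adjusted p = 0.737), and −1.38 in limma's random-effect fit (adjusted p = 0.047, 1 of 2 genes called, 0.794% of the 252). Without run 8 the random-effect value was −0.65 (adjusted p = 0.664).

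The difference between the effects of RZ in irradiated and in unirradiated mice was tested as an interaction. No gene passed the adjusted threshold in edgeR (0% of the 255). Col6a1 was the 1 of 7 with an unadjusted p under 0.05, beside 1.18% of the 255, at 1.31 ± 0.60 on the log2 scale (adjusted p = 0.998). Averaged over radiation, RZ against vehicle gave no gene of the 7 with an unadjusted p under 0.05 (3.14% of the 255) in edgeR, while blocking on the run put Col6a1 at −0.62 (edgeR unadjusted p = 0.024, adjusted p = 0.985).

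**Figure D3:**
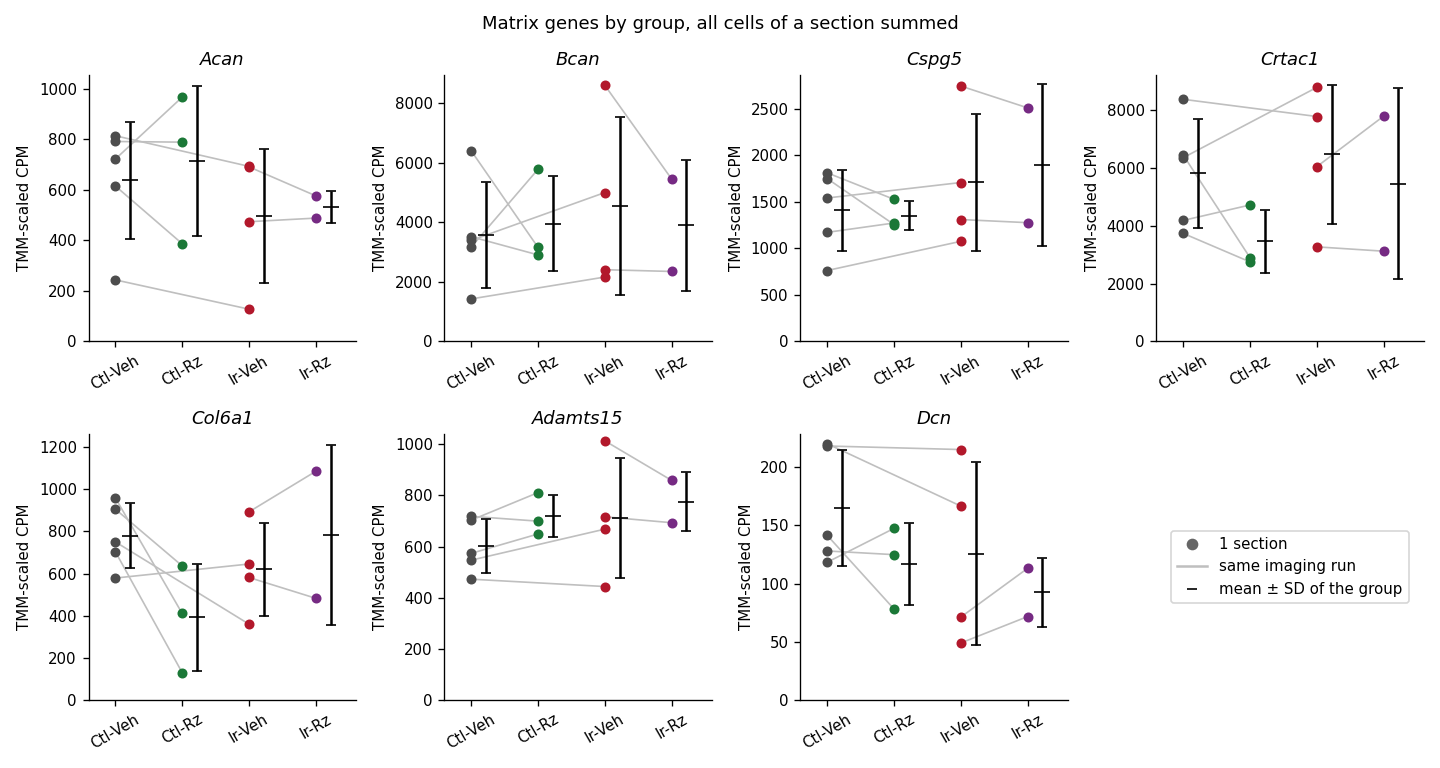
TMM-scaled CPM of the 7 genes over all cells, with 1 point per section, grey lines joining sections of a run, and bars for the mean ± SD of each group (2 to 5 sections). The groups overlap for every gene, and the Ctl-Rz points of Col6a1 lie at 131 to 637 against 579 to 959 in Ctl-Veh.

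**Figure D4:**
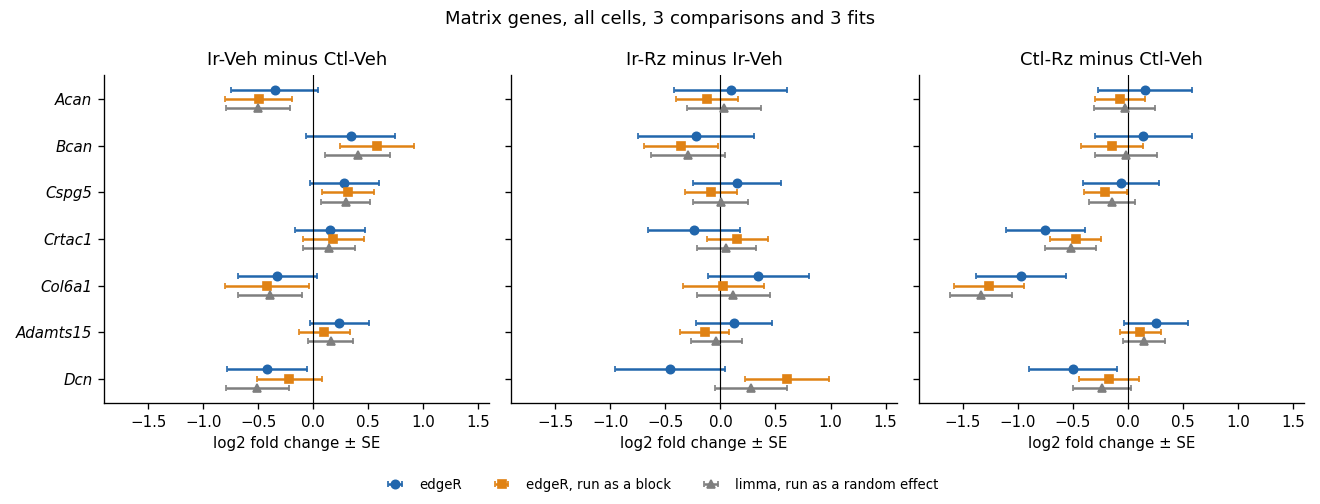
Log2 differences ± SE of the 7 genes over all cells in 3 comparisons, from edgeR without the run, edgeR with the run as a block and limma with the run as a random effect. The values of Col6a1 in Ctl-Rz minus Ctl-Veh are the farthest from 0, between −0.97 and −1.33, and Dcn in Ir-Rz minus Ir-Veh changes sign between the fits.

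The same comparisons were made within each class, and no gene of the 7 passed an adjusted p of 0.05 in edgeR, with the run in the fit or not (0% of the 252, 233 and 218 genes tested per class). Crtac1 differed between Ctl-Rz and Ctl-Veh in the same direction in all 3 classes, by −0.72 ± 0.33 in the dentate gyrus, −0.85 ± 0.42 in CA1 and −0.91 ± 0.44 in CA3 (edgeR adjusted p = 0.994, 0.998 and 0.944). Dentate Crtac1 was at 4732, 4156 and 5859.5 TMM-scaled CPM in the 3 Ctl-Rz sections and at 5493 to 11041 in the 5 Ctl-Veh sections, so that the highest Ctl-Rz section overlapped. In run 11 Crtac1 was higher with RZ in all 3 classes, at 5859.5 against 5493 in the dentate gyrus, 2700.03 against 2583 in CA1 and 3944 against 2424 in CA3. In run 3, CA1 Crtac1 was lower with RZ, at 1129.98 against 2962.

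Radiation within CA1 gave the following values. CA1 Bcan was higher in the irradiated section of both runs that held Ir-Veh and Ctl-Veh, at 10009.98 against 5617 TMM-scaled CPM in run 2 and 3300.1 against 2051 in run 12. Over all cells 27.5% of the 255 genes were higher with radiation in both runs, and the share within CA1 was not computed. The fit gave a log2 difference of 0.35 ± 0.43 over the groups, and 0.76 ± 0.26 with the run as a block (edgeR unadjusted p = 0.0082, adjusted p = 0.319). CA1 Dcn was at 48.6, 170, 37.5 and 106 in the 4 Ir-Veh sections and at 113 to 298 in the 5 Ctl-Veh sections, a log2 difference of −1.06 ± 0.44 (edgeR adjusted p = 0.999). This rests on 177 Dcn counts in CA1 over all 14 sections.

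Col6a1 in CA3 differed between the effects of RZ with and without radiation by 2.995 ± 1.16 on the log2 scale (edgeR unadjusted p = 0.018, adjusted p = 0.999). It was at 1922 and 456 TMM-scaled CPM in the Ir-Rz sections of runs 1 and 9 and at 303, 184, 359 and 836 in Ir-Veh, a difference of 1.502 ± 0.82. With the main cluster of each class alone, the latter turned to −0.21. Leaving out 1 section at a time gave 1.56 to 3.79 for the former and 0.12 to 2.25 for the latter. In the Ir-Rz section of run 1, 5 of 144 CA3 cells had 5 or more Col6a1 counts, and Col6a1 was at 1714 CPM over all CA3 cells and 295 without those 5. Further class results had an unadjusted p under 0.05 in edgeR, fitted with or without the run as a block. For these and the class results given above, the share of all tested genes under that cut was not computed. Whether such results are more frequent here than among all genes of a class was therefore not tested. Crtac1 differed between the RZ effects with and without radiation by 0.44 in the dentate gyrus and 0.55 in CA1. RZ averaged over radiation gave −0.35 for Col6a1 in the dentate gyrus. For Bcan in CA1 it gave 0.033, or −0.35 when edgeR blocked on the run. Remaining class comparisons had log2 differences between −0.53 and 1.08 in the dentate gyrus, −0.57 and 0.96 in CA1, and −1.57 and 0.81 in CA3. Their smallest unadjusted p in edgeR was 0.063, 0.087 and 0.086 in the same order.

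The share of cells with a count was compared as well, by two-sided exact permutation tests over sections for the 7 genes and 3 comparisons. On the shares as counted, none of the 21 tests had an unadjusted p under 0.05. The smallest p after Benjamini-Hochberg adjustment was 0.772. With each cell thinned to 100 counts, only Dcn in Ir-Veh minus Ctl-Veh was under 0.05 (exact permutation p = 0.016, adjusted p = 0.333). Its share was 0.925% ± 0.167 (SD) in Ir-Veh and 1.64% ± 0.381 in Ctl-Veh. The smallest exact p these designs can give is 0.0079 for radiation, 0.067 for RZ in irradiated mice and 0.018 for RZ in unirradiated mice. As a set, the 7 genes had a median log2 difference of 0.15 with radiation (all 255 genes 0.022), 0.095 with RZ after radiation (−0.019) and −0.058 with RZ alone (0.0053). The other 7 matrix genes had medians of 0.14, −0.090 and 0.11, and 0 of them had an unadjusted p under 0.05 in these comparisons in edgeR.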

How the data were processed

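MERFISH counts came from 14 hippocampal sections imaged on a MERSCOPE, with cells outlined by Cellpose per the series' design text. The authors deposited 1 matrix of raw counts per cell and gene with cell classes, Leiden clusters, positions and volumes, and 0 per-sample columns were left unused. Probe design and cell filters are not given in the sources used here. All 13602 cells were kept, 6 of them under 20 counts. Counts were summed per section, over all cells and per class. The main test was edgeR 4.0.16 (TMM, quasi-likelihood, R 4.3.3) with Benjamini-Hochberg adjustment at 0.05. It covered the genes kept by edgeR's filterByExpr on the groups. These were all 255 over all cells, and 252 in the dentate gyrus, 233 in CA1 and 218 in CA3. Alternatives used limma 3.58.1, DESeq2 1.42.0, other scalings, filters and clusters, the run as a block, and leaving out sections; Python 3.11.15 did the rest. Only the edgeR fit without the run was tried on simulated data, over all cells and for the comparisons of 2 groups. The block, random-effect, DESeq2 and class fits were not tried in this way. Run numbers come from the sample titles and were taken as imaging runs. Deviations from the group means correlated at 0.298 to 0.671 within all 7 runs, and sections were paired by these numbers. Sections with different numbers were not correlated in this way, so these values cannot show that the numbers are imaging runs. Class contrasts have no test. Genes named by rule were the 7 genes, other matrix genes at 0.2 counts per cell, the 3 most similar genes, and class results with an unadjusted p under 0.05 in edgeR with or without the block. The 7 genes and the lists were chosen with earlier results of these data known.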

Additional observations from a re-analysis of the deposited data

How the results depend on the processing

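Small log2 differences of the 7 genes changed sign with the processing. Each setting below that keeps all sections, or leaves out a whole run, reversed a value with an adjusted p over 0.8 there, and the cause was not tested. Pairing sections by run changed no call in edgeR. Values are for all cells unless a class is named, averaged RZ stands for RZ minus vehicle averaged over radiation, and the groups compared alone gave no value for averaged RZ and the RZ interaction. Settings without run 8 or run 12, with other neighbour numbers or with other thresholds for rich cells were added after the data were seen. On library size alone, the values were 0.076 for Cspg5 in Ctl-Rz minus Ctl-Veh, and 0.0804 for Bcan in averaged RZ. Per cell, the values were 0.019 for Bcan, 0.13 for Crtac1 and 0.10 for Dcn in Ir-Rz minus Ir-Veh, 0.16 for Cspg5 in Ctl-Rz minus Ctl-Veh, 0.14 for Bcan in averaged RZ, and 0.071 for Acan in the RZ interaction. On the deposited totals, the values were 0.077 for Cspg5 in Ctl-Rz minus Ctl-Veh, and 0.074 for Bcan in averaged RZ. In the main Leiden clusters, the value was −0.026 for Dcn in the RZ interaction. In the main cluster of each class, the values were 0.074 for Acan in the RZ interaction, and −0.21 for Col6a1 in Ir-Rz minus Ir-Veh in CA3. With the run as a replicate block, the values were −0.12 for Acan, −0.085 for Cspg5, 0.15 for Crtac1, −0.14 for Adamts15 and 0.61 for Dcn in Ir-Rz minus Ir-Veh, −0.0696 for Acan and −0.14 for Bcan in Ctl-Rz minus Ctl-Veh, −0.094 for Acan, −0.14 for Cspg5, −0.014 for Adamts15 and 0.22 for Dcn in averaged RZ, and −0.35 for Bcan in averaged RZ in CA1. With the run as a random effect, the values were 0.054 for Crtac1, −0.038 for Adamts15 and 0.27 for Dcn in Ir-Rz minus Ir-Veh, −0.029 for Acan and −0.016 for Bcan in Ctl-Rz minus Ctl-Veh, −0.0703 for Cspg5 and 0.019 for Dcn in averaged RZ, 0.062 for Acan in the RZ interaction, and −0.20 for Bcan in averaged RZ in CA1. Without both sections of run 8, the values were −0.014 for Crtac1 in Ir-Veh minus Ctl-Veh, −0.029 for Acan and 0.11 for Cspg5 in Ctl-Rz minus Ctl-Veh, 0.20 for Bcan in averaged RZ, and 0.13 for Acan in the RZ interaction. Without both sections of run 12, the values were −0.21 for Acan and −0.017 for Cspg5 in Ir-Rz minus Ir-Veh, −0.048 for Acan and −0.062 for Bcan in Ctl-Rz minus Ctl-Veh, and −0.13 for Acan and −0.12 for Cspg5 in averaged RZ. With the run as a random effect and without run 8, the values were 0.064 for Crtac1, −0.0499 for Adamts15 and 0.31 for Dcn in Ir-Rz minus Ir-Veh, −0.26 for Acan and 0.00016 for Cspg5 in Ctl-Rz minus Ctl-Veh, −0.11 for Acan, 0.069 for Bcan and 0.013 for Dcn in averaged RZ, and 0.29 for Acan in the RZ interaction. Leaving out 1 section at a time, the log2 differences took both signs for these genes. In Ir-Veh minus Ctl-Veh the range was −0.17 to 0.66 for Bcan, −0.044 to 0.45 for Cspg5 and −0.031 to 0.37 for Crtac1. In Ir-Rz minus Ir-Veh the range was −0.21 to 0.30 for Acan, −0.95 to 0.29 for Bcan, −0.42 to 0.55 for Cspg5, −1.05 to 0.27 for Crtac1, −0.36 to 0.80 for Col6a1 and −0.048 to 0.35 for Adamts15. In Ctl-Rz minus Ctl-Veh the range was −0.12 to 0.46 for Acan, −0.24 to 0.46 for Bcan and −0.21 to 0.038 for Cspg5. In averaged RZ the range was −0.028 to 0.28 for Acan, −0.41 to 0.22 for Bcan and −0.24 to 0.25 for Cspg5. In the RZ interaction the range was −0.37 to 0.21 for Acan, −1.09 to 0.15 for Bcan, −0.36 to 0.61 for Cspg5, −0.30 to 1.02 for Crtac1, −0.31 to 0.089 for Adamts15 and −0.27 to 0.39 for Dcn. In the RZ interaction in DG the range was −0.18 to 0.86 for Crtac1. In Ir-Veh minus Ctl-Veh in CA1 the range was −0.065 to 0.63 for Bcan. In averaged RZ in CA1 the range was −0.58 to 0.35 for Bcan. In the RZ interaction in CA1 the range was −0.24 to 1.13 for Crtac1. The run as a random effect called 1 gene over all cells and 2 in the dentate gyrus in Ctl-Rz minus Ctl-Veh. In CA3, Ir-Rz minus Ir-Veh called 0 to 1 genes without 1 section. Adamts15 in CA1 against the dentate gyrus was 0.32 per cell and 0.23 per volume, against −0.42 in CPM. With cells thinned to 100 counts, the share of cells with Bcan in Ir-Rz minus Ir-Veh was −0.645 points and with Crtac1 −2.87 points. Dcn, with 79 counts in CA3 and 177 in CA1, had the fewest counts of the 7 genes in both fields.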

Other observations

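CA1 cells rich in Bcan or in Crtac1 were picked by count after the data were seen and are described with no test. CA1 cells with 5 or more Bcan counts numbered 853 of 3397, 25.1% of the class with 62.9% of its Bcan counts. They had 2.04-fold more Col11a1 in CPM than other CA1 cells, higher in 13 of 13 sections, and Crtac1 at 0.564 of its level in CPM, though not per cell, where it was at 1.03 counts against 1.04. The 97 CA1 cells with 6 or more Crtac1 counts had Col11a1 at 0.199 of its level in other cells, 2.43-fold more Grp, which encodes gastrin-releasing peptide, and 1.94-fold more Camk2g, a subunit of a calcium-dependent kinase, the last in 13 of 13 sections. Cells rich in Bcan held a median of 549 counts against 305.5.

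In CA3, the 237 cells with 5 or more Bcan counts, found in 14 of 14 sections, had 1.81-fold more Acan than other CA3 cells, higher in 10 of 14 sections.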
